A study of Mus musculus with 12 samples.

Results

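The protease inhibitor genes, Serpina3f, Serpina3g, Serpina3n, A2m, Wfdc16 and Spink5, were followed across the lung libraries of a mouse study of Tbx4, a T-box transcription factor of the lung mesenchyme. These are 6 of the 24421 genes in the deposited count table, found there by symbol, and all 6 passed the filter on low counts. They were chosen by the size of the difference between CKO and Control at P14 or P36, or by its reversal between the ages, in these same libraries. Their genotype differences are therefore described without a test. The only test on these genes is of the age effect averaged over the genotypes. The choice did not use that contrast, but it draws on the same libraries.

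RNA sequencing was done on whole mouse lung at postnatal day 14 (P14) and day 36 (P36). Control mice were Tbx4fl/fl, carrying alleles of Tbx4 that a recombinase can delete, and CKO mice were the TBX4 conditional knockout. There were 3 libraries of each genotype at each age, 12 in all, with 17806206 to 28481876 counts per library. What drives the recombinase, and so which cells lost Tbx4, the sources used here do not give, nor do they state whether the libraries of a group came from separate animals, so p-values measure the spread between these libraries.

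Protease inhibitors hold extracellular proteases in check and are made in the lung by epithelium, mesenchyme and macrophages. Serpins are suicide substrates: a protease cuts their reactive loop and is trapped on it. Alpha-2-macroglobulin instead closes around proteases of every class, WAP domain proteins are small proteins with a core of disulfide bonds, and Kazal domain proteins block trypsin-like and kallikrein enzymes by fitting tightly into the active site. Human SERPINA3, alpha-1-antichymotrypsin, is a single gene whose relatives form a cluster of many copies in the mouse, and several of these copies are known to be inducible by inflammatory signals.

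Tbx4, the targeted gene, overlapped between the genotypes at both ages: its level, as CPM (counts scaled to the library total with TMM factors), was 110 to 157 in Control and 111 to 129 CPM in CKO at P14, and 62.7 to 79.8 CPM against 67.2 to 87.4 CPM at P36. The edgeR quasi-likelihood test gave an adjusted p of 0.626 at P14 and 0.511 at P36 for it. Which part of the gene was deleted the sources used here do not give, so counts over the whole gene are a weak check of the labels. Markers of alveolar type 2 cells, the surfactant-making epithelium, were abundant in every library, with a summed level of 6600 to 20065 CPM. CKO replicates 2 and 3 at P14 carry the same library number in the labels, and so do Control replicates 1 and 3 at P36. These pairs varied less than other pairs of a group, with a biological coefficient of variation of 4.0% and 2.02% against 10.6% to 27.5%. CKO replicate 3 at P36 held 597 CPM of summed adipose markers, against at most 96.7 CPM in the other libraries. Counts of Y-linked genes exceeded Xist in Control replicate 2 and all 3 CKO libraries at P36 and in none at P14, so sex differed partly with age and with genotype at P36. Within a group sex varied only in Control at P36, replicate 2 against the same-numbered replicates 1 and 3. A term for sex rests on that contrast and is a weak adjustment.

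Serpina3f, Serpina3g and Serpina3n lie in the Serpina3 cluster of chromosome 12 and are close relatives. In the GRCm38 (mm10) coordinates of the count table, Serpina3f spans chr12:104214544-104221129, Serpina3g chr12:104214544-104241934 and Serpina3n chr12:104406708-104414329. Their GENCODE M21 coding sequences were 87.37% identical between Serpina3f and Serpina3g over 744 aligned bases, 86.0% between Serpina3f and Serpina3n and 85.19% between Serpina3g and Serpina3n. A stretch of 90 coding bases shows what a read must carry to be placed on 1 copy. It is the one where Serpina3f and Serpina3g differ most, among stretches without gaps in the 3. Capitals mark bases that differ from Serpina3f: 14 in Serpina3g and 25 in Serpina3n.
Serpina3f: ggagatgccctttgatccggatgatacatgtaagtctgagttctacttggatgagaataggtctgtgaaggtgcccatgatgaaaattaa
Serpina3g: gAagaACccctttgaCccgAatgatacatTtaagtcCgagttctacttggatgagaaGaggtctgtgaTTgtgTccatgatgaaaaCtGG
Serpina3n: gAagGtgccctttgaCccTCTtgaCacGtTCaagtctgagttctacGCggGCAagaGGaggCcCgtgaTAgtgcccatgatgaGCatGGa

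The gene models also overlap. Serpina3f and Serpina3g share 147 exon bases in 2 blocks, chr12:104214544-104214620 and chr12:104216869-104216938, which is 6.42% of the exon bases of Serpina3f and 7.28% of those of Serpina3g. Of all windows of 50 transcript bases, 10.57% of Serpina3f, 15.5% of Serpina3g and 6.9% of Serpina3n were found word for word in another gene, and of windows of 100 bases 3.4%, 3.49% and 0.2%. How reads that fit several genes were counted the sources used here do not give, so values of these copies are uncertain to that extent. A2m, Wfdc16 and Spink5 had no such window.

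Serpina3f encodes a serpin of the alpha-1-antichymotrypsin group. In Control at P14 it was at 1.33, 1.04 and 1.31 CPM in replicates 1, 2 and 3, and in CKO at P14 at 3.94, 10.8 and 10.9 CPM. At P36 the order was turned round, with 8.51, 9.60 and 8.86 CPM in Control and 1.39, 3.26 and 4.10 CPM in CKO. All 3 CKO libraries lay above all 3 Control libraries at P14 and below them at P36, and CKO replicate 1 was the lowest of its group at both ages. CKO replicates 2 and 3 at P14 share a library number, as do Control replicates 1 and 3 at P36. Each pair is perhaps 1 animal, which limits the errors of those groups for this gene and for those that follow. CKO was 2.80 ± 0.44 (SE) higher on the log2 scale at P14, which is 6.98-fold, and -1.62 ± 0.40 at P36, which is 3.07-fold lower. The log2 difference at P36 minus that at P14 was -4.42 ± 0.59. CKO at P14 (8.56 ± 4.0 CPM, SD, n = 3) and Control at P36 (8.99 ± 0.56 CPM) had overlapping ranges.

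Serpina3g, also called Spi2A, is an intracellular member of the group known to inhibit lysosomal cathepsins and to be induced in activated macrophages and T cells. As for Serpina3f, its lowest group mean was Control at P14 and its highest Control at P36. At P14 it was at 2.98, 2.02 and 2.79 CPM in Control and at 6.19, 7.98 and 6.88 CPM in CKO. At P36 it was at 11.3, 10.50 and 9.83 CPM in Control and at 5.33, 6.88 and 9.16 CPM in CKO. Again the groups did not overlap at either age, with CKO above Control at P14 and below it at P36, where the nearest libraries were 9.16 and 9.83 CPM. The log2 difference was 1.43 ± 0.21 at P14 and -0.56 ± 0.19 at P36, and the later minus the earlier was -1.996 ± 0.285. From P14 to P36 the Control level was 4.05-fold higher, whereas in CKO the mean was 7.02 ± 0.90 CPM at P14 and 7.12 ± 1.93 CPM at P36.

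Serpina3n encodes a secreted serpin that inhibits leukocyte elastase and granzyme B and rises in the acute phase. It was by far the most abundant of the 6 per length of transcript, at 18.2 ± 1.1 CPM per kilobase in Control at P14, where Serpina3f was at 0.535 ± 0.072 and Serpina3g at 1.29 ± 0.25 CPM per kilobase. At P14 it went the other way from its neighbours: 36.2, 36.8 and 40.6 CPM in Control against 14.9, 17.4 and 19.5 CPM in CKO. At P36 it was at 51.1, 60.3 and 50.3 CPM in Control and at 62.4, 34.1 and 52.3 CPM in CKO. The groups were apart at P14 and overlapped at P36, where CKO held both the highest and the lowest library. The log2 difference was -1.13 ± 0.19 at P14 and -0.12 ± 0.18 at P36, and the latter ranged from -0.33 to 0.09 when each library was left out in turn.

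**Figure D1:**
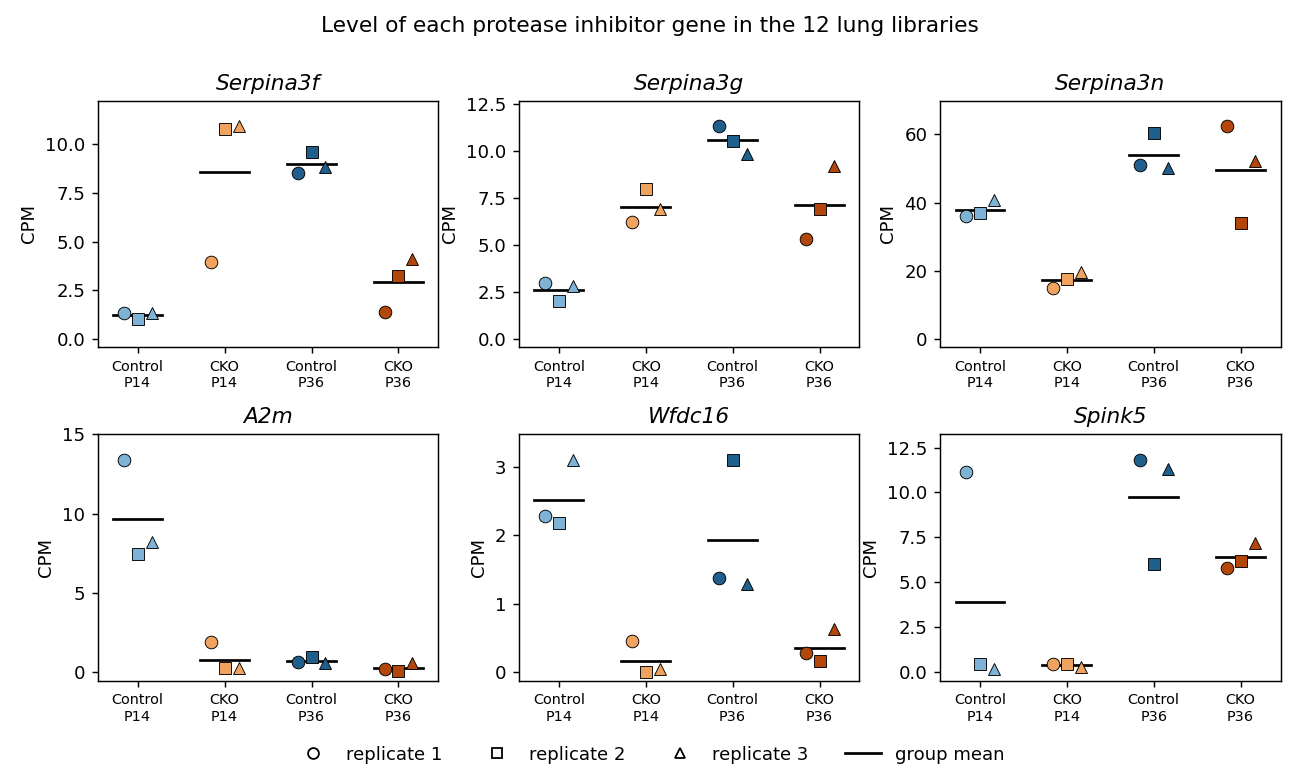
Level in CPM (vertical axes, 1 scale per gene) of the 6 genes in each of the 12 libraries, by group, with symbols for the replicate and a bar for the group mean. Serpina3f and Serpina3g were higher in CKO at P14 and lower at P36, Serpina3n, A2m and Wfdc16 were lower in CKO at P14, and the Control P14 mean of Spink5 rested on 1 library at 11.1 CPM.

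A2m encodes alpha-2-macroglobulin, the broad protease trap of plasma, and spans chr6:121636173-121679238. In Control at P14 it was at 13.4, 7.45 and 8.20 CPM, and in CKO at P14 at 1.91, 0.24 and 0.26 CPM. Replicate 1 of CKO had 34 counts (1.91 CPM, exact 95% Poisson interval 1.32 to 2.67) and replicates 2 and 3 had 5 counts each, so the first stood apart beyond counting error. At P36 the level was low in both genotypes, at 0.64, 0.98 and 0.60 CPM in Control and 0.19, 0.05 and 0.59 CPM in CKO. The groups were wide apart at P14 and did not overlap at P36, but there the nearest libraries differed by a single count, 15 in Control replicate 3 and 14 in CKO replicate 3. The log2 difference was -3.62 ± 0.68 at P14, or -5.24 without CKO replicate 1, which leaves the same-numbered replicates 2 and 3 and so perhaps 1 animal, and -1.33 ± 0.85 at P36, or -2.52 without CKO replicate 3. Control at P14 was the 1 group with a high level: its mean of 9.68 ± 3.24 CPM stood against 0.80 ± 0.96, 0.74 ± 0.21 and 0.27 ± 0.28 CPM in CKO at P14, Control at P36 and CKO at P36.

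Wfdc16 lies at chr2:164634708-164638802 on the minus strand and encodes a small protein with a WAP domain, the fold of the leukocyte protease inhibitor Slpi. At P14 it was at 2.27, 2.17 and 3.10 CPM in Control, and at 0.45, 0.00 and 0.05 CPM in CKO, from 8, 0 and 1 counts. The count of 0 in CKO replicate 2 allows a level of up to 0.143 CPM with 3 counts as the floor, and the exact 95% Poisson interval reaches 0.176 CPM, counting error only. At P36 it was at 1.38, 3.10 and 1.29 CPM in Control and 0.28, 0.16 and 0.63 CPM in CKO. All CKO libraries lay below all Control libraries at both ages, and Control at the 2 ages overlapped. The log2 difference was -3.94 ± 0.77 at P14, or -6.35 without CKO replicate 1, when CKO again rests on the same-numbered pair, and -2.37 ± 0.67 at P36. Of the other genes within 250 kb of Wfdc16, a stretch that holds many WAP domain genes, 22 were tested. Of these, 10 were below zero in the CKO difference at P14 and 14 at P36. The median difference over all tested genes was -0.01 at P14 and 0.01 at P36, so all genes split about evenly around zero. Among the neighbours, named after their values were seen, Wfdc10 had 35 counts over the Control libraries at P14 and 0 over those of CKO. Wfdc13 had 34 and 5, with groups apart, as for 24.1% of all tested genes. Its log2 difference of -2.63 ± 0.79 did not pass (edgeR adjusted p = 0.0922), and at P36 it was 0.52 ± 0.64, with 21 counts in Control and 26 in CKO. The other tested WAP genes there, Wfdc2, Wfdc6a, Wfdc6b and Wfdc8, had P14 differences of -0.51, 0.31, 0.09 and -0.11, and none passed.

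Spink5 encodes LEKTI, a many-domain Kazal inhibitor of skin and squamous epithelium, and spans chr18:43963241-44022487. At P14 it was at 11.1, 0.44 and 0.16 CPM in Control and at 0.45, 0.48 and 0.31 CPM in CKO. Control replicate 1 had 235 counts, while the 5 other P14 libraries had 3 to 10. At P36 it was at 11.8, 6.03 and 11.3 CPM in Control and at 5.79, 6.20 and 7.20 CPM in CKO. The genotypes overlapped at both ages. The P14 log2 difference of -3.23 ± 1.29 became 0.44 without Control replicate 1, so its sign rested on that library. In that library the summed level of 12 markers of basal and squamous epithelium was 1.94 CPM, against 2.91 and 3.21 CPM in Control replicates 2 and 3. Krt6a was at 0 in all 12 libraries, Dsg3 in 11 and Krt5 in 8, this one included. The library also stood apart in its group by low cardiac muscle markers, 219 CPM summed against 2006 and 1429 CPM, and a low level of the airway mucin Muc5b, 3.84 against 828 and 622 CPM. The sum of 10 club and airway secretory markers, Muc5b among them, was less apart, at 11044.5 against 17474 and 11955 CPM. Most of that sum was the club cell marker Scgb1a1, at 9745 against 13201 and 9263 CPM. Each of the 10 was also taken on the log2 scale against its own mean over the 12 libraries. The mean of these deviations was -2.47 in replicate 1 against 1.98 and 1.39. Scgb3a1 was at 0.47 against 237 and 154 CPM, and Bpifb1 at 0.52 against 94.3 and 66 CPM. The part of these tissues in the Spink5 level was not tested.

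**Figure D2:**
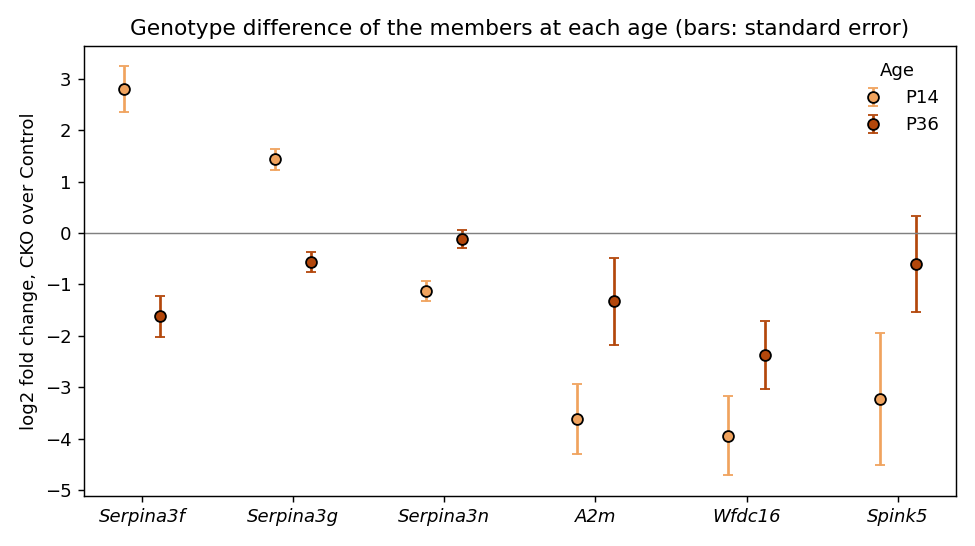
Log2 fold change of CKO over Control (vertical axis) for the 6 genes at P14 and at P36, with bars of 1 standard error. Serpina3f and Serpina3g had opposite signs at the 2 ages, from 2.80 to -1.62 and from 1.43 to -0.56, while A2m and Wfdc16 were below zero at both and Spink5 had the widest errors.

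Across the table, the groups failed to overlap for 24.1% of the 15923 tested genes at P14 and 22.6% at P36, and 2.95% (470 genes) were apart at both ages in opposite directions, as Serpina3f and Serpina3g were. Of the 6 genes, 5 were apart at P14 and 4 at P36, which is how they were picked and is no evidence about inhibitors. Each was ordered by its 4 group means. For Serpina3f Control at P14 was lowest and did not overlap the next group, while the neighbours above it, CKO at P36, CKO at P14 and Control at P36, overlapped in turn. For Serpina3g Control at P14 was apart below, both CKO groups overlapped in the middle and Control at P36 was apart above. For Serpina3n CKO at P14 alone was apart from the next, and for Spink5 all neighbours overlapped. CKO replicate 3 at P36, the library with adipose markers, was the highest of its group in 5 of the 6 genes. It also stood apart from CKO replicates 1 and 2 in summed cardiac muscle markers (1422 against 194 and 287 CPM), basal and squamous markers (16.7 against 2.55 and 2.36 CPM) and Muc5b (2149 against 10.4 and 104 CPM). The sum of 10 club and airway secretory markers was less apart, at 39336 against 17516 and 34898 CPM. Most of that sum was Scgb1a1, at 30411 against 15722 and 31244 CPM. The mean log2 deviation of the 10 from their own means was 3.49 against -2.28 and -0.68. Scgb3a1 was at 887 against 1.11 and 6.67 CPM, and Bpifb1 at 284 against 0.09 and 0.89 CPM. The part of these tissues in the levels of that library was not tested. Whether a change came from fewer cells of a type or less RNA per cell cannot be told apart in whole lung.

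The age effect averaged over the genotypes was tested, a contrast that the choice of genes did not use. It draws on the same libraries, so the test is not fully free of the choice where a group or library stands out, as in Control at P14 for A2m and Spink5. Averaged over the genotypes, Serpina3g rose from P14 to P36 by 1.02 ± 0.14 on the log2 scale (edgeR adjusted p = 0.000142), Serpina3n rose by 1.01 ± 0.13 (adjusted p = 0.000108) and Spink5 rose by 2.62 ± 0.80 (adjusted p = 0.0215). A2m fell by 2.56 ± 0.54 (adjusted p = 0.00273). Serpina3f (0.66 ± 0.29, adjusted p = 0.0831) and Wfdc16 (0.39 ± 0.53, adjusted p = 0.563) did not pass. So 4 of 6 passed, where 50.3% of all tested genes did, 26% upward and 24.3% downward, a share near the background.

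Sex differed between the ages, but within a group only in Control at P36, replicate 2 against the same-numbered replicates 1 and 3. A term for sex rests on that contrast and is a weak adjustment. With it, Serpina3g (adjusted p = 0.00915), Serpina3n (0.0157) and A2m (0.0368) stayed past the threshold and Spink5 did not (3.21 on the log2 scale, adjusted p = 0.088). Spink5 also missed it with same-numbered libraries summed (adjusted p = 0.0748) and without CKO replicate 1 or 3 at P14 (0.0525 and 0.0516), and its age effect was 4.45 without Control replicate 1 at P14. Serpina3f passed with DESeq2 (0.66, adjusted p = 0.0491) and without CKO replicate 1 at P36 (0.82, adjusted p = 0.0192). The averages hide unlike courses. From P14 to P36 the log2 change of Serpina3f was 2.87 in Control and -1.55 in CKO, and that of Serpina3g 2.02 and 0.02. That of Serpina3n was 0.51 and 1.52, of A2m -3.71 and -1.42, of Wfdc16 -0.39 and 1.18, and of Spink5 1.30 and 3.93.

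**Figure D3:**
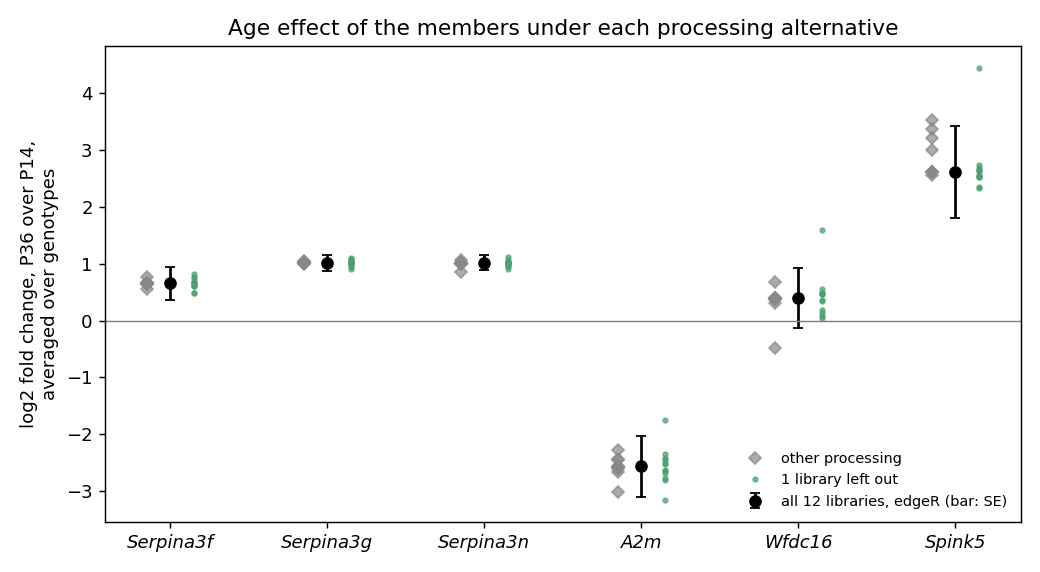
Log2 fold change of P36 over P14 averaged over genotypes (vertical axis) for the 6 genes: black points with bars of 1 standard error are all 12 libraries, diamonds other processing and dots 1 library left out. Serpina3g and Serpina3n stayed close to 1, A2m stayed below zero, Spink5 reached 4.45 in 1 case and Wfdc16 had values on both sides of zero.

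The rest of the Serpina3 cluster was read from all its genes in the table. Serpina3h, which lies just beyond Serpina3g, was at 3.17, 4.19 and 3.37 CPM in Control and 5.40, 10.3 and 9.12 CPM in CKO at P14. At P36 it was at 14.3, 16.3 and 15.2 CPM in Control and at 1.62, 9.14 and 10.7 CPM in CKO. Its groups were apart at both ages in the same directions as those of Serpina3f and Serpina3g, and CKO replicate 1 was again the lowest of its group at both ages. With the edgeR test its log2 differences of 1.21 ± 0.52 at P14 (adjusted p = 0.248) and -1.09 ± 0.49 at P36 (adjusted p = 0.293) did not pass, nor did the change between ages of -2.30 ± 0.71 (adjusted p = 0.112). Of its windows of 50 bases 21.91% occur in another gene, mostly Serpina3i and Serpina3g.

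Serpina3c and Serpina3i had no genotype difference that passed, with log2 values at P14 of -0.43 ± 0.29 (edgeR adjusted p = 0.462) and 0.20 ± 0.29 (adjusted p = 0.76). Serpina3i rose with age by 0.68 ± 0.20 (adjusted p = 0.0139). Serpina3m had 1 count over all 6 libraries at P14, against 62 in Control and 24 in CKO at P36. Serpina3a, Serpina3b, Serpina3j and Serpina3k had 0, 6, 2 and 10 counts over all libraries and were not tested.

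**Figure D4:**
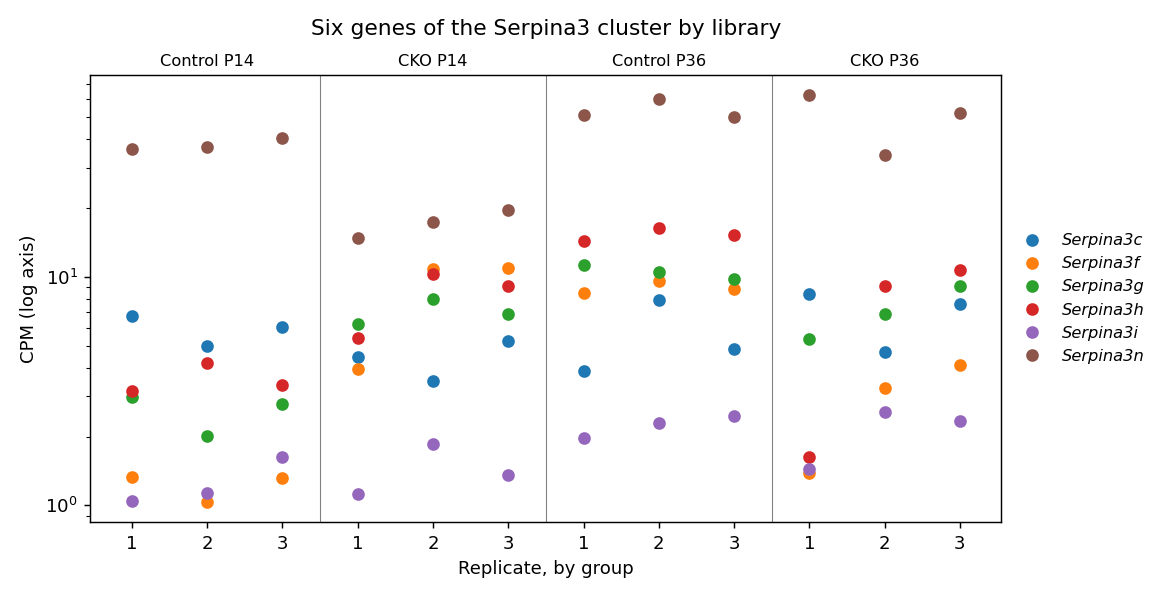
CPM on a log axis (vertical) of 6 genes of the Serpina3 cluster in each library, 1 column per library within the 4 groups. Serpina3f, Serpina3g and Serpina3h had their lowest group mean in Control at P14 and their highest in Control at P36, while Serpina3n lay above the other copies in every library and was lowest in CKO at P14.

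The starts of these genes are shown because Serpina3f and Serpina3g moved together and Serpina3n did not. The 250 bases before the RefSeq start on GRCm38.p6 are chr12:104214294-104214543 for Serpina3f, chr12:104235897-104236146 for Serpina3g and chr12:104406458-104406707 for Serpina3n, all on the plus strand. RefSeq also lists a later start of Serpina3f, and its start of Serpina3g differs from the one in the count table. Capitals mark matches on either strand to TTCNNNGAA, the palindrome bound by STAT factors, which carry interferon and interleukin signals to the nucleus.
Serpina3f: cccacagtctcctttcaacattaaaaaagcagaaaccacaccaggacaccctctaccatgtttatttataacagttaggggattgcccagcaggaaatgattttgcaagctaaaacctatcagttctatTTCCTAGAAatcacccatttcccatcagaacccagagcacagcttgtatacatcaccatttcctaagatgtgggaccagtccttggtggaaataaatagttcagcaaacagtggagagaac
Serpina3g: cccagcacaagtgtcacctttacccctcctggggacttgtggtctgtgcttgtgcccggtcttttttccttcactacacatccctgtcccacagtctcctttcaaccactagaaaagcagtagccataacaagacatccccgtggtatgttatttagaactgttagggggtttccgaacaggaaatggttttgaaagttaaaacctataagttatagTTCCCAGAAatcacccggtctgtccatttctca
Serpina3n: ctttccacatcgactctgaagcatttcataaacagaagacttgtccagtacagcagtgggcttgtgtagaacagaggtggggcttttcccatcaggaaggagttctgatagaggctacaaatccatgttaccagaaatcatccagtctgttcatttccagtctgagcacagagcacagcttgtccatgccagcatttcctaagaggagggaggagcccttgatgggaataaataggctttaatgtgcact

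Serpina3f had 1 match, TTCCTAGAA, that begins 121 bases before the start, and Serpina3g had 1, TTCCCAGAA, that begins 33 bases before it. Serpina3i also had 1, TTCCCAGAA, that begins 102 bases before its start. Its log2 genotype difference was 0.20 ± 0.29 at P14 and -0.08 ± 0.27 at P36. Serpina3h was not searched, and a part of the motif in the levels was not tested. Serpina3n and Wfdc16 had none in this window. Of 32851 mouse promoters of the same length, 7.02% held the motif. The interferon-stimulated response element, searched by its core on both strands, occurred in 2.98% of them and in none of the 4 genes. These are matches of letters only, and no binding was measured. RefSeq entries were found for 4 of the 6 genes, without A2m and Spink5.

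Genes of the interferon gamma response were read beside these serpins. The list of 35 had been drawn up with results of these data known. At P14, 12 of 33 tested members rose in CKO (36.4%, edgeR adjusted p under 0.05) and 0 fell, where 4.45% of all genes passed, 3.33% upward and 1.11% downward, and the median log2 difference was 0.72 against -0.01 for all genes. They include the GTPases Igtp (1.24 ± 0.25, adjusted p = 0.0194) and Tgtp2 (1.15 ± 0.25, adjusted p = 0.0268). At P36 0 of 33 passed, with 3 at an unadjusted p under 0.05 and a median of -0.11, where 2.33% of all genes passed, 1.49% upward and 0.842% downward. The change between ages was lower for 4 (12.1%, against 1.61% of all genes, 0.458% upward and 1.15% downward), Gbp5, Iigp1, Ifi47 and Psmb9. With same-numbered libraries summed, 2 of 33 rose at P14, where 128 of 16068 genes passed. In the change between ages 0 fell, where 0 of all genes passed.

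The acute phase list held products that liver and inflamed tissue make after injury, and also receptors and regulators of that response. Of its 24 tested genes 2 rose in CKO at P14 (8.33%, against 4.45% of all genes, 3.33% upward). These were the macrophage lectin Chil3 (1.04 ± 0.22, edgeR adjusted p = 0.0268), also among the alveolar macrophage markers below, and the transcription factor Stat3 (0.32 ± 0.06, adjusted p = 0.0104). At P36 0 passed, with 5 at an unadjusted p under 0.05, where 2.33% of all genes passed. Neither of the 2 passed with same-numbered libraries summed (adjusted p = 0.109 and 0.132).

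Markers of some immune cells differed at P14 too, where 3.33% of all genes rose and 1.11% fell. Of 8 dendritic cell markers, 5 rose in CKO, and their summed level was 45.2 to 45.9 CPM in Control and 67.6 to 97.3 CPM in CKO, against 65.2 to 68.9 and 72.2 to 97.3 CPM at P36. Of 7 tested natural killer and innate lymphoid markers 3 rose, with a summed level of 2.47 to 4.10 CPM in Control and 6.36 to 11.99 CPM in CKO, against 32.9 to 43.5 and 25.6 to 38.0 CPM at P36; Klra8 was at 0 in every library. Of 8 alveolar macrophage markers 3 rose, from 180 to 209 CPM in Control to 259 to 302 CPM in CKO, and of 7 monocyte markers 4 rose, at 885 to 1137 CPM in Control and 1105 to 1219 CPM in CKO. Of 5 tested T cell markers 1 rose, and of 6 neutrophil, 5 B and plasma cell and 6 mast cell and basophil markers 0 passed the edgeR test, with 1, 1 and 5 at an unadjusted p under 0.05. The B and plasma cell sum was 52.1 to 72.6 CPM in Control and 43.5 to 71.0 CPM in CKO. Of 11 alveolar fibroblast markers 5 fell and 1 rose, at 12160 to 16205 CPM in Control and 10324 to 12895 CPM in CKO. In CKO at P14 replicates 2 and 3, which share a library number, held dendritic cell sums of 95.3 and 97.3 CPM. Their natural killer sums were 11.99 and 11.7 CPM. Replicate 1, at 67.6 and 6.36 CPM, was lower but above Control in both. Marker calls with same-numbered libraries summed were not counted, and there 128 of all genes passed at P14. The part of these immune cells and fibroblasts in the levels of Serpina3f, Serpina3g and A2m was not tested.

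The other protease inhibitors numbered 154 on the lists, 146 in the table and 73 among the tested genes. At P14, 4 rose and 2 fell in CKO (8.22%, against 4.45% of all genes), and the median log2 difference was 0.15. Those that rose were Timp3, an inhibitor of metalloproteases bound to the matrix (0.84 ± 0.14, edgeR adjusted p = 0.00555), Serping1, the inhibitor of complement C1 (0.75 ± 0.12, adjusted p = 0.00614), Serpine2, protease nexin-1 (0.64 ± 0.10, adjusted p = 0.00472), and the membrane-anchored Reck (0.41 ± 0.08, adjusted p = 0.0124). Serpina7, which carries thyroid hormone and inhibits no protease, fell by 1.38 ± 0.32 (adjusted p = 0.0334). Wfdc10, the neighbour of Wfdc16, had 18, 10 and 7 counts in Control and 0 in each CKO library, at least 11.2-fold lower with 3 counts over the group as the floor (adjusted p = 0.0299). Without CKO replicate 2 or 3 at P14 the number that passed was 3, and with same-numbered libraries summed it was 0 (adjusted p = 0.0658 for Timp3 and 0.0516 for Serpine2). Over all genes 708 passed, 253 and 231 without those replicates, and 128 of 16068 with same-numbered libraries summed.

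By family at P14, 3 of 25 other serpins passed (12%, against 4.45% of all genes). In WAP (1 of 13), Kazal (1 of 5) and cystatin and TIMP genes (1 of 16) a single gene passed, too few to speak for a family. Of 6 alpha-2-macroglobulin relatives and 8 Kunitz genes 0 passed, with 3 and 0 at an unadjusted p under 0.05. At P36, 3 of the 73 passed (4.11%, against 2.33% of all genes), and the median was -0.12. Col6a3, a collagen chain with a Kunitz domain, rose by 0.69 ± 0.12 (adjusted p = 0.0116), Reck rose by 0.38 ± 0.08 (adjusted p = 0.0285), and Spink2 fell by 1.36 ± 0.31 (adjusted p = 0.0452). None of these 3 passed with a term for sex (adjusted p = 0.25 to 0.472) or with same-numbered libraries summed (0.14 to 0.223). Without Control replicate 1 or 3 at P36 the number was 0, and without CKO replicate 2 at P36 it was 1. It was 5 without CKO replicate 3 at P36 or Control replicate 1 or 2 at P14. Over all genes 371 passed, and 82, 101 and 177 without Control replicate 1, Control replicate 3 or CKO replicate 2 at P36. That number was 432 without CKO replicate 3 at P36, and 453 and 480 without Control replicate 1 or 2 at P14.

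With age, 33 of the 73 rose and 15 fell (65.8%, against 50.3% of all genes). Slpi, the secretory leukocyte protease inhibitor of airway secretions, rose by 3.07 ± 0.28 (edgeR adjusted p = 1.05e-05), from 0.66 ± 0.26 to 9.94 ± 4.43 CPM in Control. Fetub (2.32 ± 0.34) and Ahsg (2.11 ± 0.42), fetuins of the cystatin fold, and C4b (2.10 ± 0.17), a complement protein related to alpha-2-macroglobulin that inhibits no protease, rose with it. The predicted stefin gene Gm5483 (-2.55 ± 0.46), the collagens Col6a3 (-1.11 ± 0.08) and Col7a1 (-0.88 ± 0.14) and Cd109, a cell surface relative of A2m (-0.85 ± 0.15), fell. All of these kept an adjusted p under 0.05 with a term for sex, a weak adjustment here.

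Of the proteases such inhibitors act on, 1 of 25 serine proteases passed at P14 (4%, against 4.45% of all genes) and 0 at P36, with 5 at an unadjusted p under 0.05 at P36. That 1 was Gzmb, granzyme B of cytotoxic cells, named after its values were seen. It had 1, 49 and 46 counts in CKO at P14 against 1, 1 and 2 in Control (4.49 ± 1.03, edgeR adjusted p = 0.0346), so CKO replicate 1 was level with Control. The 49 and 46 counts are from CKO replicates 2 and 3, which share a library number. With same-numbered libraries summed 0 serine proteases passed at P14, where 128 of 16068 genes passed. At P36 the genotypes overlapped at 36 to 54 and 28 to 57 counts. Of 36 cathepsins and metalloproteases 5 rose and 0 fell at P14 (13.9%, against 4.45% of all genes), with Ctss (0.85 ± 0.16, adjusted p = 0.0144) and Mmp2 (0.82 ± 0.11, adjusted p = 0.00238) the largest. At P36 3 rose (8.33%, against 2.33% of all genes): Mmp3 (2.27 ± 0.43, adjusted p = 0.0251), Adamts4 (2.11 ± 0.47, adjusted p = 0.0391) and Mmp2 (0.99 ± 0.11, adjusted p = 0.00164). With same-numbered libraries summed Mmp2 passed at P14 (adjusted p = 0.036), and Ctss at P14 and Mmp3 and Adamts4 at P36 did not (adjusted p = 0.119, 0.179 and 0.23). With a term for sex Mmp3 and Adamts4 did not pass (adjusted p = 0.318 and 0.485).

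**Figure D5:**
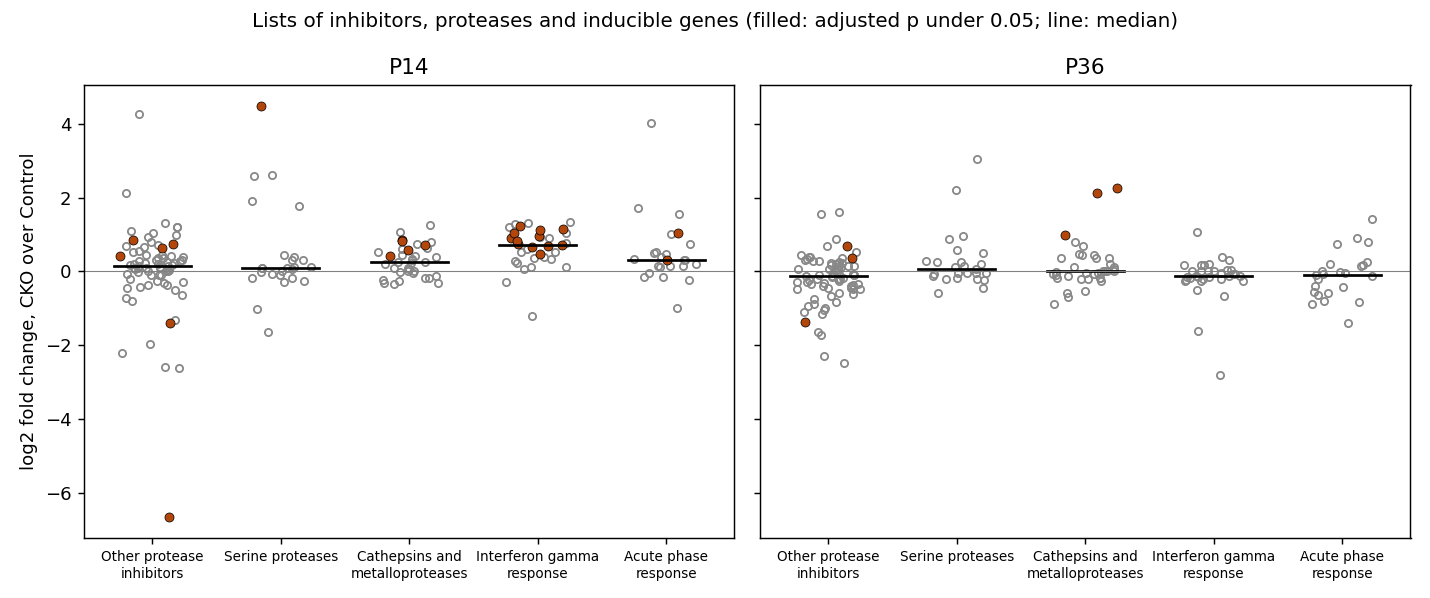
Log2 fold change of CKO over Control (vertical axis) for the tested genes of 5 lists at P14 (left) and P36 (right), each point a gene, filled where the adjusted p was under 0.05, with a line at the median. The interferon gamma list had a median of 0.72 at P14 and -0.11 at P36, and that of the other protease inhibitors was 0.15 and -0.12.

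The genes whose course was most like that of each inhibitor were ranked by Pearson r of log2 CPM over the 12 libraries, among 13770 genes, as a description of libraries that share groups. For A2m they were Megf11 (r = 0.984, Spearman's rho 0.937), Rspo4 (0.973, rho 0.958) and Nrcam (0.963, rho 0.930). Rspo4, a secreted enhancer of Wnt signalling, was at 15.1, 11.3 and 11.4 CPM in Control at P14 and at 4.22, 1.05 and 1.51 CPM in CKO, so CKO replicate 1 again lay between. For Wfdc16 they were Lipg (0.962), Col23a1 (0.934) and Slc1a2 (0.932). For Serpina3f they were C1galt1 (0.937), Hipk3 (0.928) and Col4a3bp (0.914), for Serpina3g Nek7 (0.946), March1 (0.944) and C1galt1c1 (0.941), for Serpina3n Dhx37 (0.937), Ptp4a3 (0.924) and Kars (0.906), and for Spink5 Banf1 (0.951), Dad1 (0.950) and Paip2b (0.941). Most of these moved far less over the libraries than the gene they follow. On the log2 scale Serpina3f spanned 3.29 and its matches 0.27 to 0.41, Serpina3n 2.06 and its matches 0.40 to 0.58, and Spink5 5.57 and its matches 0.42 to 0.75. Serpina3g spanned 2.43 and its matches 0.59 to 1.78, Wfdc16 5.11 and its matches 1.61 to 2.05, and A2m 6.54 and its matches 3.74 to 5.80.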

How the data were processed

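Lung RNA (miRNeasy) went into KAPA RNA HyperPrep libraries, per the labels' protocols. FastQC, STAR, featureCounts and edgeR are named in the submitters' processing notes with mm10; the sources used here do not give versions, strand setting or treatment of reads with several matches. The authors deposited counts of reads per gene and a table of log2 CPM values, which was used only for an alternative. All 6 genes matched GENCODE M21 by symbol.

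Counts were tested in edgeR 4.0.16 (R 4.3.3; quasi-likelihood, filterByExpr with minimum count 10 and total 15, TMM, Benjamini-Hochberg over 15923 genes, adjusted p under 0.05) in a single fit of 12 libraries grouped by the labels, and tested on simulated data. Errors after ± are SE on log2 differences and SD (n = 3) on CPM. Intervals cover counting error only. The members and lists were chosen with earlier results of these data known. Of list genes past the threshold, those named were up to 4 rises and 4 falls of other inhibitors and up to 2 of each other list and direction, by fold, with groups apart and at least 1 CPM in a group. For the likeness ranking, genes needed a mean of 1 CPM and log2 CPM used a prior count of 2. Alternatives were RLE scaling, library totals, no filter, 1 CPM in 3 libraries, DESeq2 1.42.0, limma-voom and limma trend (3.58.1), same-numbered libraries summed, a replicate block, a term for sex and each library left out.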

Additional observations from a re-analysis of the deposited data

Results flagged for a closer look

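Serpina3f and Serpina3g went in opposite directions in CKO against Control at P14 and P36 in every library, with differences of the log2 fold changes of -4.42 and -1.996; since they were picked for this, the difference was not tested.

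For 7 genes of the lists the genotype difference changed between the ages by the edgeR test of that change itself (P36 minus P14, log2). Col6a3 changed by 0.76 (adjusted p = 0.0465) and Timp3 by -0.88 (adjusted p = 0.0486). Of the interferon gamma list, Gbp5 changed by -0.98, Iigp1 by -1.24, Ifi47 by -0.83 and Psmb9 by -1.05 (adjusted p = 0.0212 to 0.0478). The macrophage lectin Chil3 changed by -1.93 (adjusted p = 0.0299). None passed with a term for sex or with same-numbered libraries summed, where 0 of all genes did.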

How the results depend on the processing

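The genotype differences of the 6 genes kept their sign under 10 other ways of processing and with each of 12 libraries left out, apart from Serpina3n at P36 (up to 0.09) and Spink5 at P14 (0.44), at P36 (0.08 with a term for sex) and between ages (-1.04). The age effect of Serpina3f passed the threshold with DESeq2 (0.66) and the replicate block (0.67), and ranged from 0.49 to 0.82 with libraries left out. That of Spink5 missed it with same-numbered libraries summed (2.56) and a term for sex (3.21) and ranged from 2.33 to 4.45; DESeq2 gave it no adjusted p. That of Wfdc16, not called, was -0.47 with a term for sex. The number of other inhibitors called at P14, 6 in the reported test, was 10 with DESeq2, 0 with same-numbered libraries summed and 3 to 9 with libraries left out. At P36, 3 became 5 with library totals or limma-voom, 9 with DESeq2, 7 with the replicate block, 0 with same-numbered libraries summed or a term for sex, and 0 to 5 with libraries left out. For the change between ages, 2 became 1 with library totals, no filter or 1 CPM in 3 libraries, 9 with DESeq2, 0 with limma-voom, same-numbered libraries summed or a term for sex, and 0 to 4 with libraries left out. With age 48 became 37 to 50. Calls over all genes shifted too. At P14 they were 708 in the reported test, 1104 with DESeq2 and 128 with same-numbered libraries summed. At P36, 371 became 409 with library totals, 350 with limma-voom, 865 with DESeq2 and 448 with the replicate block. It became 42 with same-numbered libraries summed and 38 with a term for sex. For the change between ages 256 became 1086 with DESeq2, 105 with limma-voom, and 0 with same-numbered libraries summed or a term for sex. The cause of these shifts was not tested.

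Whether replicate numbers pair the libraries was not tested. Of 18 pairs across groups with the same replicate number, 8 had a correlation of deviations over 0.1, and the 18 ranged from -0.30 to 0.57. Between Control and CKO at P14 these pairs were at 0.37, 0.25 and 0.26, and pairs of unlike number at -0.35 to 0.22. At P36 they were at -0.30, 0.07 and 0.36, and pairs of unlike number at -0.35 to 0.33. The replicate block made 5 of the 6 genes pass for age in place of 4. Depth limits A2m and Wfdc16 in CKO, which rest on 0 to 34 counts a library.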
